A study of Mus musculus with 16 samples.

Results

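The strongest accessible regions of mouse embryonic stem cells were described here across 2 treatments and 4 cell cycle fractions. A region was taken when it had a read in all 8 columns of the deposited region table, lay on an autosome and had a level of at least 5. The level is the region's signal in a column divided by the smallest value of that column, which is the worth of 1 read, averaged over the 8 columns. By this rule 669 of 124444 autosomal regions were chosen, or 0.538%, and 1.75% of the 38182 autosomal regions read in every column. Since the levels chose the regions, they are given as a description, with no test.

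The assay was ATAC-seq: a transposase cuts open DNA and leaves adaptors there, and the cut fragments are sequenced. All cells carried the genotype label FOXD3-iKO and were grown as embryonic stem cells in L2i medium, and FOXD3 depletion was induced with tamoxifen (4HT), with ethanol (EtOH) as the control and a treatment time of 24 h. Nuclear DNA was stained with DAPI and cells were sorted by DNA content into fractions that the labels call G1, ES, LS and G2, and the last names are used as given. The 8 groups were the 4 fractions under EtOH and the same 4 under 4HT, each with 2 libraries that the authors' table holds as 1 pooled column. How the deletion is driven, by which promoter, and how many clones were used is not given in the sources used here.

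Promoters are the best known class of strongly open chromatin. Many housekeeping promoters lie in stretches rich in CG dinucleotides and carry GC boxes, which zinc finger proteins of the Sp and KLF families bind, and CCAAT boxes, which the NF-Y complex binds. NF-Y has histone-like subunits and is known to help keep promoters free of nucleosomes in embryonic stem cells. Distal enhancers, by contrast, are bound by factors of the cell type, such as the pluripotency factors.

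Promoter sequences of 6 of the strongest regions are shown because the content of CCAAT boxes set these promoters apart from weaker ones, as described next. Each stretch holds the 250 bases before the start site in the RefSeq table of GRCm38.p6, written 5′ to 3′ on the transcribed gene's sense strand. Capitals mark CCAAT boxes (CCAAT or its reverse complement ATTGG) and GC boxes (GGGCGG or CCGCCC). Hdgfl2 (chr17:56079381-56079630, plus strand) encodes a chromatin reader of the HDGF family. Sin3a (chr9:57076126-57076375, plus strand) encodes the scaffold of a histone deacetylase complex. Hnrnpl (chr7:28810640-28810889, plus strand) encodes a splicing regulator. Mbd3 (chr10:80399532-80399781, minus strand) encodes a subunit of the NuRD repressor. H2az2 (chr11:6444444-6444693, minus strand) encodes a variant of histone H2A. Klf2 (chr8:72318812-72319061, plus strand) encodes a pluripotency factor of the KLF family.
Hdgfl2: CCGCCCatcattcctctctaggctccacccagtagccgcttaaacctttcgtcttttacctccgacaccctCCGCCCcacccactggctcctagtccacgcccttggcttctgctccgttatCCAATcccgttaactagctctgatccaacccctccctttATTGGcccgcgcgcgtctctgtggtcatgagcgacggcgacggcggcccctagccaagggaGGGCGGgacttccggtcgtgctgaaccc
Sin3a: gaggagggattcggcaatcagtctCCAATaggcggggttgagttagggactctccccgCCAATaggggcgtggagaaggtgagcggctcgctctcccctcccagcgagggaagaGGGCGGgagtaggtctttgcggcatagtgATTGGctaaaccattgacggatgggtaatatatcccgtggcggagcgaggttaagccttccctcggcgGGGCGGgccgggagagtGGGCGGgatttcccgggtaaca
Hnrnpl: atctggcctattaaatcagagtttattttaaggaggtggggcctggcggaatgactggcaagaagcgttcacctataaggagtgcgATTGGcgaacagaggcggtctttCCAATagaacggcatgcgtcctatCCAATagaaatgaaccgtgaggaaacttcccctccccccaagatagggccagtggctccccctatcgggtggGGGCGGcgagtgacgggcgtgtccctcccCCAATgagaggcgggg
Mbd3: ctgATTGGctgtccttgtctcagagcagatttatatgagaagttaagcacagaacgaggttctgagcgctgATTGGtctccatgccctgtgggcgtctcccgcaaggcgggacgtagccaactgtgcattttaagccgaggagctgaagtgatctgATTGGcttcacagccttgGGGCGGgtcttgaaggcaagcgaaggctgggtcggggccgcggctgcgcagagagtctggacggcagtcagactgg
H2az2: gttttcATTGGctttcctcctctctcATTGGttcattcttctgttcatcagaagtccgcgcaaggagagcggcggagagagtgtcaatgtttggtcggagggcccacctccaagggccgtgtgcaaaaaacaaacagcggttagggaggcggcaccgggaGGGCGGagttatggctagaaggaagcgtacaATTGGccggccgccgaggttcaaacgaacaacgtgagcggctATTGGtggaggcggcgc
Klf2: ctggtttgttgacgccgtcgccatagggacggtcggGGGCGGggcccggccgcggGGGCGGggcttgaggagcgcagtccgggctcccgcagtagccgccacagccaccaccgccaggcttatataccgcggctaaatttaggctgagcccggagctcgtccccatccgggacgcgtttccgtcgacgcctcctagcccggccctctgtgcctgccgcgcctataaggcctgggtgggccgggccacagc

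The stretches of Sin3a and Mbd3 each hold 3 CCAAT boxes, those of Hnrnpl and H2az2 hold 4, that of Hdgfl2 holds 2, and that of Klf2 holds none but 2 GC boxes. The boxes stand in either orientation: all 3 in Mbd3 and all 4 in H2az2 read ATTGG, while 3 of 4 in Hnrnpl read CCAAT. The regions over these promoters had levels of 19.8 (Hdgfl2), 15.6 (Sin3a), 10.8 (Hnrnpl), 9.60 (Mbd3), 6.29 (Klf2) and 5.65 (H2az2). The 6 promoters were picked from the named regions, so they illustrate the letters and do not stand for all.

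Among the promoters that the RefSeq table places in the strongest regions, 61.9% held a CCAAT box in the 300 bases from 250 before to 50 after the start site, on either strand. These were 565 promoters in 410 of the regions. The share was 47.8% of 5391 promoters in regions at a level of 2 to 5, and 29.4% of 5802 promoters in regions at a level of 1 to 2. Of 17324 promoters with no region at the start site, 36.9% held one, more than at a level of 1 to 2. Their median GC content was 47.3%. Of all 31396 autosomal promoters in the table, 37.3% held one. Promoters with at least 3 CCAAT boxes made up 25.7% in the strongest regions, 8.07% at a level of 2 to 5 and 1.47% at a level of 1 to 2. With no region at the start site the share was 2.03%. Promoters are not independent replicates and several may lie in 1 region, so the shares are set side by side with no test. Taking 1 promoter per region gave 62.9%, leaving out chromosome 8 gave 62.3%, and searching only the bases before the start site gave 59.8%.

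Base composition hardly differed between these classes. The median GC content of the promoters was 63.7% in the strongest regions, 62.7% at a level of 2 to 5 and 62.3% at a level of 1 to 2. The median number of CG dinucleotides was 23, 23 and 22. Over all autosomal promoters these medians were 53% and 7, so that set differs from the 3 classes in base composition. Within promoters of 60 to 65% GC, 64.9% of those in the strongest regions held a CCAAT box, against 50.04% and 30.6% in the weaker classes. Below 55% GC the shares were 86.1%, 56.6% and 41.8%, and above 70% GC they were 39.6%, 34.3% and 16.6%. The order of the 3 classes was the same in each of 5 GC classes.

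All 512 words of 5 letters, each merged with its reverse complement, were ranked by the difference between the strongest regions and those at a level of 1 to 2. CCAAT ranked first, with a difference of 32.6 percentage points. It also ranked first against regions at a level of 2 to 5, with 14.1 points. The next words in the first ranking, CAATC with 23.2 points and GCCAA with 20.6 points, share 4 letters with it.

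GC boxes were found in 83.5% of promoters in the strongest regions, 73.3% at a level of 2 to 5, 65.3% at a level of 1 to 2 and 35.98% of all autosomal promoters. A GC box and a CCAAT box can share the letters CC where they meet. Both boxes were present in 50.6% of promoters in the strongest regions and in 34.5% and 17.03% of those in the weaker classes, and neither box in 5.13%, 13.5% and 22.4%. Of the other motifs searched, again on both strands, the KLF core GGGTGTGG was found in 6.73%, 3.99% and 3.43% of the 3 classes and in 3.57% of all promoters. The NRF1 core GCATGCGC was found in 4.07%, 7.18% and 4.60%, and in 2.70% of all promoters. The forkhead core TGTTTAC, the type of letters that FOXD3 as a forkhead factor may bind, was found in 1.59%, 1.97% and 2.38%, and in 3.71% of all promoters. The octamer ATGCAAAT, known as a site of the POU factor OCT4, was found in 1.42%, 1.45% and 1.41%, and in 1.75% of all promoters. The octamer therefore stood at a like share in the 3 classes. Such a match is a description of letters and not evidence of binding. The shares of all promoters come from a set of lower GC content and are not matched for it.

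Across finer classes of level, the share of promoters with a CCAAT box rose from 26.9% at a level of 1 to 1.5 to 43.6% at 2 to 3 and 62.8% at 4 to 5. It was 59.95% at a level of 5 to 8 and 69.1% at 8 or more. The share with at least 2 boxes was 5.37% in the lowest of these classes and 49.6% in the highest. GC boxes went from 63.1% to 89.4% over the same classes. The plot of motif shares by level shows the steepest part of the CCAAT curve below the threshold of 5, so the threshold marks no step in it.

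**Figure D1:**
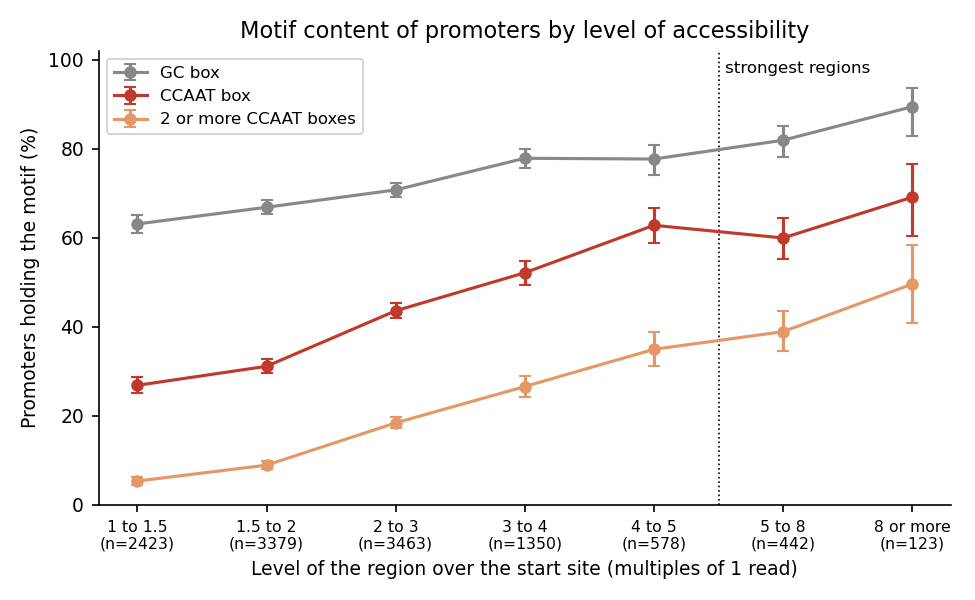
Share of promoters (vertical axis, percent) that hold a GC box, a CCAAT box or at least 2 CCAAT boxes, against the level of the region over the start site (horizontal axis, multiples of 1 read). Bars are 95% Wilson intervals, which cover counting error only; the CCAAT share goes from 26.9% in the lowest class to 69.1% in the highest.

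The CCAAT boxes were most frequent between 90 and 70 bases before the start site in the strongest regions, where 18.1 boxes stood per 100 promoters. At a level of 1 to 2 the same bin held 4.29 boxes per 100 promoters. Between 250 and 230 bases before the start site, the strongest regions held 10.97 boxes per 100 promoters, against 2.75 at a level of 2 to 5 and 1.72 at a level of 1 to 2. The excess was therefore not limited to the usual place of the box. The median position of a box was -103 in the strongest regions, -80 at a level of 2 to 5 and -84 at a level of 1 to 2. Of 836 boxes in the strongest regions, 50.2% read CCAAT on the transcript's strand, so neither orientation was preferred.

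**Figure D2:**
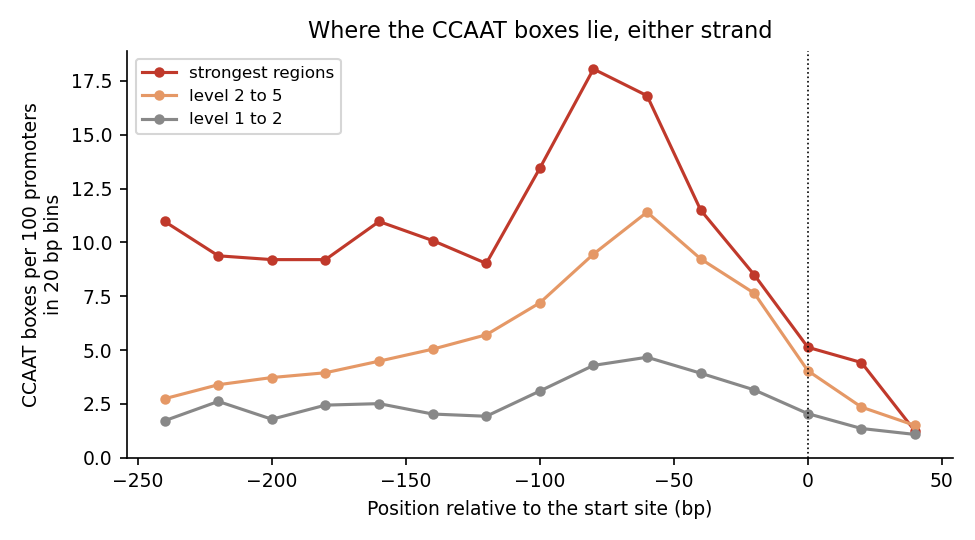
CCAAT boxes per 100 promoters (vertical axis) in bins of 20 bp along the promoter (horizontal axis, bp relative to the start site, dotted line), for the strongest regions and 2 weaker classes. The curve of the strongest regions peaks at 18.1 and lies above that of the level 2 to 5 class in all bins but the last.

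Most of the strongest regions lay at promoters. A start site was within 1000 bp of 538 of the 669 regions, or 80.4%, against 53.6% of regions at a level of 2 to 5, 37.3% of those read in all columns and 19.0% of all autosomal regions. For 13 of the 538, that start site was the reference point of a deposited promoter window to which no gene symbol could be given. A further 65 regions lay 1 to 10 kb from a start site and 66 lay beyond 10 kb. Of the 713 named genes with a start site within 1000 bp of a strongest region, 586 were protein-coding. Start sites on both strands were held by 143 of the 479 strongest regions that hold any in the RefSeq table, or 29.9%, against 23.7% at a level of 2 to 5 and 15.1% at a level of 1 to 2.

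The strongest regions were wide, with a median of 826 bp against 636 bp at a level of 2 to 5 and 252 bp for all autosomal regions. Width and position went together. Of 212 strongest regions of 1000 bp or more, 93.9% lay near a start site, while of 52 under 300 bp only 30.8% did. The narrow ones included the region of highest level. Regions with levels just above the threshold lay at Hmg20b (5.002), Ryr3 (5.01) and Ctbp2 (5.01), and just below it at Pdpk1, Dmwd and Hspa2 (each 4.99).

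The levels had a median of 6.21 and quartiles of 5.49 and 7.61, so that most regions stood close above the threshold. A level of 10 was reached by 68 regions, 20 by 8 and 100 by 2. Every column reached 5 on its own in 158 of the 669 regions. The median multiple of the 669 was 4.70 in the shallowest column, 4HT in G1, and 8.16 in the deepest, EtOH in G2. For the same signal, the multiple is lower in a shallow column. Columns are therefore set side by side as deposited signal, in CPM (counts scaled to library size) taken as a mean over covered bases, and differences between columns were taken on the centred log2 scale described further on.

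The window placed on the start site of Foxd3, the targeted gene, had a signal of 0.141 to 0.243 CPM in 4HT and 0.110 to 0.195 CPM in EtOH, which overlap. This is no check of the depletion, since the deleted stretch is not named in the labels. The implied depth of the columns ran from 6.78 to 11.2 M reads. Of 10 embryonic stem cell markers, 9 had a region read in all columns within 1000 bp of their start site, with a highest level between 1.47 (Esrrb) and 6.11 (Zfp42) and 2.30 at Sox2. For fibroblasts this held for 4 of 7 markers (1.34 to 2.05), with Col1a2, Col3a1 and Pdgfra without one, and for primitive endoderm for 1 of 5 (Gata6, 1.28). Of the neural markers 2 of 4 had such a region, of the trophectoderm markers 3 of 3 (up to 3.71 at Gata3), and of the two-cell-like markers 0 of 4. An open promoter does not show expression, and the share of other cells was not tested.

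The region of highest level, chr1:24613019-24613216, lay 319 bp from the start site of Gm10222. This predicted gene is known as a nuclear copy of mitochondrial DNA, whose letters match those of the mitochondrial genome closely. Its signal was 643.5, 754.5, 911.2 and 737.2 CPM in EtOH G1, ES, LS and G2 and 893.5, 717.8, 803.0 and 779.0 CPM in 4HT, a level of 7160. The second region, chr1:24612660-24612847, overlapped the same gene, with 31.998, 42.5, 25.4 and 22.5 CPM in EtOH and 24.6, 42.3, 24.5 and 24.2 CPM in 4HT, a level of 274.7. Both regions stood far above all others in each of the 8 columns. Whether reads of mitochondrial origin were counted there was not tested.

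A pair of narrow regions on chr8, chr8:19784561-19784750 and chr8:19784839-19784972, lay over the predicted gene Gm10060 and had levels of 42.1 and 22.2. The fourth region by level, chr16:11144001-11144174 (27.6), lay in Zc3h7a, which encodes a zinc finger protein. Its signal was 2.19, 0.750, 1.21 and 9.31 CPM in EtOH G1, ES, LS and G2 and 1.12, 0.480, 0.692 and 6.65 CPM in 4HT. The fifth region, chr3:5860576-5860834 (level 23.7), overlapped no gene and lay 20057 bp from the nearest start site. Its signal was 0.672, 0.689, 0.612 and 7.11 CPM in EtOH and 1.41, 0.732, 0.857 and 7.47 CPM in 4HT. In both of these regions the G2 columns were the highest, in either treatment.

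The remaining regions of the first 12 were less uneven. A region at the start site of the predicted gene Gm8493 on chr5 had a level of 20.6, and chr17:6430107-6430239 in Dynlt1b, a dynein light chain gene, had 20.5. At Hdgfl2, whose start site shares the region chr17:56078924-56079742 with that of Ubxn6, an adaptor of the p97 ATPase, the signal was 1.93, 1.38, 2.11 and 2.62 CPM in EtOH and 2.32, 2.01, 2.48 and 2.03 CPM in 4HT. At Sin3a, where the region chr9:57075769-57076411 also holds the start site of 2700012I20Rik, it was 1.55, 1.13, 2.22 and 1.81 CPM in EtOH and 0.957, 1.81, 1.75 and 2.01 CPM in 4HT. The lowest of the 8 columns was EtOH ES at Hdgfl2 and 4HT G1 at Sin3a, and the treatments overlapped at both. Csnk1g2, a casein kinase gene on chr10, had a level of 14.3, and Clec11a, a gene of a secreted growth factor on chr7, had 14.1 in a region 1091 bp from a start site. In the plot of the 12 regions by column, only the regions in Zc3h7a and on chr3 spread widely along the axis.

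**Figure D3:**
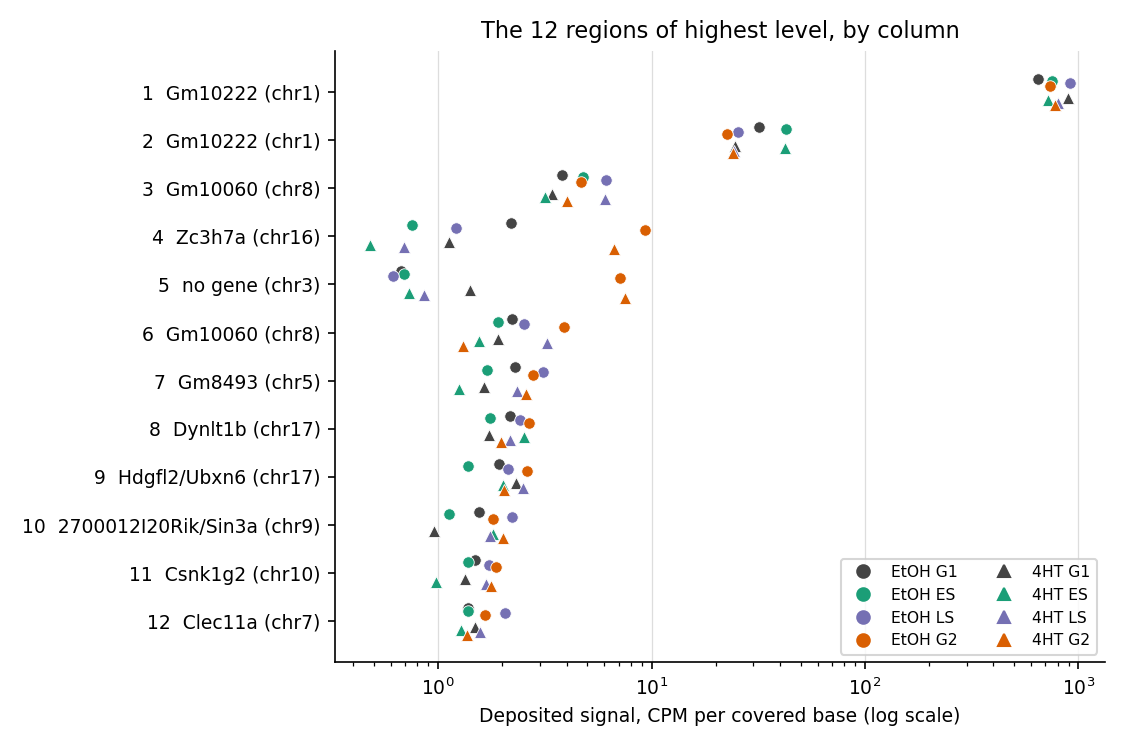
Deposited signal in CPM per covered base (horizontal axis, log scale) of the 12 regions of highest level (rows, with the gene and chromosome) in each of the 8 pooled columns, circles for EtOH and triangles for 4HT, coloured by fraction. The G2 columns lie apart from the others in the region in Zc3h7a (9.31 and 6.65 CPM) and in the region on chr3 (7.11 and 7.47 CPM).

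Genes of known groups were counted among those with a strongest region within 1000 bp of a start site. The background was 4.86% of the 14684 named genes with a region read in all columns there, and 4.97% of the 11800 protein-coding ones. Chromatin repressors had one at 5 of 27 genes: Sin3a, Gatad2a (11.2) and Mbd3, both in NuRD, Trim28 (6.94), the corepressor of KRAB zinc finger proteins, and Cbx5 (6.39), the heterochromatin protein HP1 alpha. Translation factors had one at 4 of 23, with Eif1 (6.90), Eif5a (6.86) and Eef1g (6.03) the highest. Splicing factors had one at 4 of 37, among them Hnrnpl, Hnrnpc (9.47) and Ptbp1 (7.04). The region of Cbx5 is the same as that of Hnrnpa1, since their start sites share it.

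DNA replication genes had a strongest region at 4 of 44 genes. Among them were Gins2 (11.02), a subunit of the replicative helicase, Pcna (5.67), the sliding clamp, and Slbp (5.62), which binds histone mRNA. Regulators of the E2F and MYC type had one at 3 of 21, namely E2f3 (7.75), Mxd1 (6.22) and Mnt (5.97). Among genes with symbols of ribosomal proteins the count was 8 of 88, of which Rps6ka2 and Rps6ka5 encode kinases and not ribosomal proteins. Histone genes had 3 of 58, all of them variants of the H2ax, H2az2 and H3f3b type, and the highest was H2az2 (5.65). The counts were 1 of 30 proteasome genes (Psmd3, 5.53) and 1 of 28 genes of G2 and mitosis (Ckap2, 5.14). None of the listed genes of RNA polymerase II and Mediator (30) or of the p53 response and apoptosis (23) had one. The same held for the 10 neural crest, 7 fibroblast and 9 primitive endoderm genes with a read region. These counts cover listed genes only. A strongest region in a group at chr10:79766811-79985278 is named after Med16, a Mediator gene that the count does not hold.

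Naive pluripotency genes had a strongest region at the start site of 2 of 19 genes, Klf2 and Zfp42. Zfp42 encodes REX1, a marker of naive cells. Near its start site the signal was 0.497, 0.738, 1.20 and 0.465 CPM in EtOH G1, ES, LS and G2 and 0.287, 0.658, 0.830 and 0.588 CPM in 4HT. Thus LS was the highest fraction in each treatment on this deposited scale, followed by ES. A second strongest region, chr8:43320500-43321325 (level 8.19), lay over 10 kb from the start site, with 0.468, 0.928, 1.15 and 1.10 CPM in EtOH and 0.614, 0.7998, 1.21 and 0.679 CPM in 4HT. There G1 was the lowest and LS the highest fraction in each treatment on the deposited scale. After centring, the log2 differences from G1 in EtOH were 0.92 in ES, 0.91 in LS and 0.94 in G2. In 4HT they were 0.51, 0.74 and 0.10, so LS was the highest after centring in 4HT only. Esrrb, a nuclear receptor gene of naive cells, had one far from its start site, chr12:86501563-86502238 (5.77). These 2 distal regions were chosen after their values were seen.

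Genes of small RNAs also appeared. The Rn7s1 and Rn7s2 genes of the RNA of the signal recognition particle lay in regions with levels of 5.46 and 5.10. The region of Rn7s1 is also that of the ribosomal protein gene Rps29. Transfer RNA genes had a strongest region at 3 of the 46 with a read region that are named as such in the list, and the highest was 8.18 at n-TMcat17. Small nuclear and nucleolar RNA genes had 5 of 44, among them Snord49a and Snord49b (5.12), which share the same region. Snora64 and Snora78 share a region with Rps2, and Snord59a shares that of Atp5b. The count of 5 is thus of genes and not of separate regions. Of 125 microRNA genes with a read region, 6 had one, and the highest of these, Mir22hg (10.7), is a host gene. The 4.80% of microRNA genes is close to the background of 4.86%. Zfp zinc finger genes had 9 of 306, or 2.94%, with Zfp78 (13.2) the highest.

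The strongest regions were uneven across chromosomes. Chromosome 8 held 100 of them, or 14.9%, against 7.12% of all autosomal regions and 9.05% of those read in all columns. Its windows of 5000 bp at start sites had a median signal 1.12 to 1.19 times the median of the other autosomes in the 8 columns, and no other autosome reached it in any column. Whether chromosome 8 is present in more copies in these cells was not tested. The threshold was the same for all chromosomes, and Klf2, Zfp42, Gins2, Gatad2a and Ckap2 lie on chromosome 8. The part of the higher window signal in its count of strongest regions was not tested. Chromosomes 7 and 17 held 77 and 48 strongest regions, 2.96% and 2.91% of their read regions against 2.89% on chromosome 8. Their window levels were 1.26 and 1.30, within the range of the other autosomes. These shares depend on the regions read, which were 39.0% of all regions on chromosome 8, 34.5% on 7 and 33.3% on 17. Of read regions near a start site, 7.35% were strongest regions on chromosome 8, against 5.31% on 7 and 5.64% on 17. In the plot by chromosome, 8 alone stands apart in the lower panel. In the upper one 7, 8 and 17 are the highest, followed by 19 with 2.50%.

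**Figure D4:**
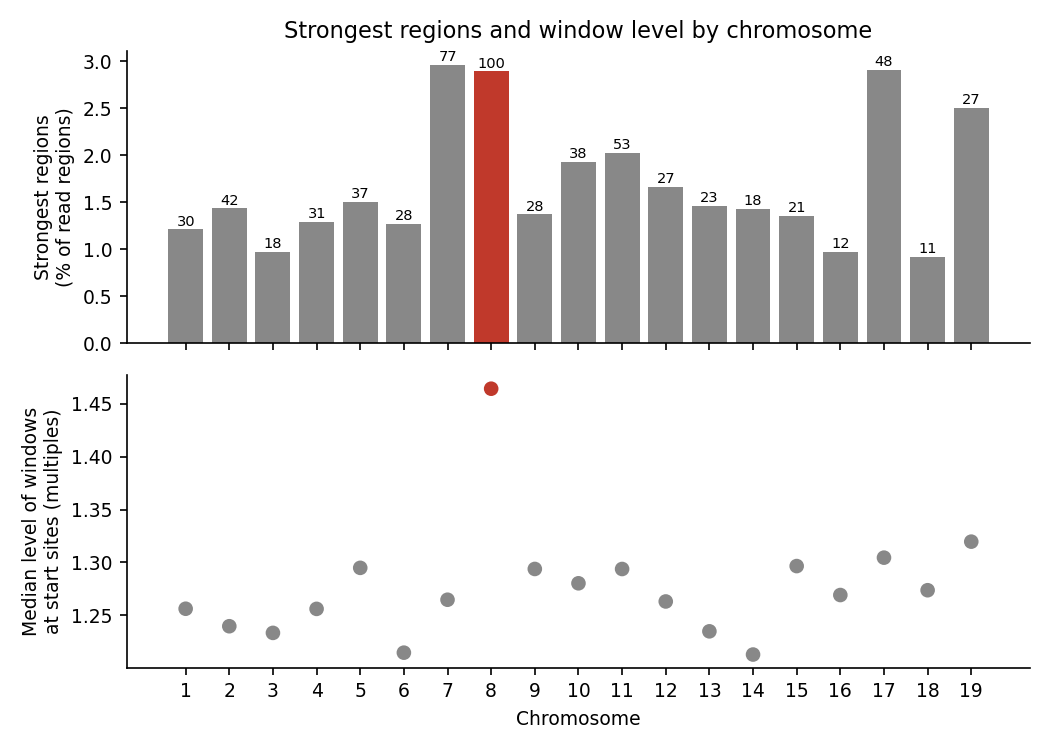
Strongest regions as a percentage of the autosomal regions read in all columns (upper panel, numbers above the bars are counts) and median level of windows at start sites in multiples of 1 read (lower panel, axis not from 0), by chromosome. Chromosome 8 (red) has 100 strongest regions and a median window level of 1.46, the next being 1.32 on chromosome 19.

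Some of the strongest regions were neighbours. Within 100 kb of each other, 22 groups of at least 3 formed, with 89 regions. A group of 8 lay at chr8:70673000-70865982, with Lsm4, Jund, Rab3a, Mpv17l2, Mast3 and Arrdc2 among its genes and levels from 5.49 to 12.8. Jund encodes a subunit of the AP-1 factor and Lsm4 a protein of the spliceosome. A group of 7 lay at chr7:44815628-45129219, all near start sites, with Atf5, Akt1s1, Ap2a1, Prmt1, Rras, Prr12 and Rpl13a. Prmt1 encodes an arginine methyltransferase. A group of 6 at chr8:19703086-19785166 was of another kind: none of its regions lay near a start site, their median width was 149 bp, and the levels ran from 8.38 to 42.1.

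Deposited windows of 5000 bp around start sites that held a strongest region had a median level of 2.996 (699 windows), against 1.49 for windows holding only weaker read regions and 1.18 for windows with none. These windows overlap the regions, so this is the same signal averaged over more bases. Of the 100 windows of highest level, 86 held a strongest region, but of the 10 highest only 1 did.

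The treatment comparison asked whether accessibility differed after induction of FOXD3 depletion. No region was called in the limma fit over the 8 columns, which had 3 residual degrees of freedom (adjusted p under 0.05, 0% of 11010 tested regions). The 4 fractions served as repeats, so p-values measure the spread among pooled columns and not among cultures. At an unadjusted limma p under 0.05, 35 of the 669 strongest regions passed (19 higher and 16 lower in 4HT), or 5.23%, against a background of 5.42% of all tested regions. The share among the strongest regions was thus that of the background. The median difference of 4HT minus EtOH was -0.01 on the log2 scale, and 0.00 over all tested regions. Their differences had an SD of 0.19 across regions, against 0.24 for the other tested regions, and 98.2% lay within 0.5 of 0. The median standard error of a single strongest region was 0.17, and no difference among them, up to 0.87 in size, passed the threshold.

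In all 4 fractions, 51 of the strongest regions were higher and 39 lower in 4HT, together 13.5%, against 13.4% of all tested regions. The largest difference was at chr8:120337005-120337230 in Gse1, a gene of a corepressor-associated protein. Its signal was 0.384, 0.515, 0.582 and 0.588 CPM in EtOH G1, ES, LS and G2 and 0.845, 0.700, 1.02 and 1.503 CPM in 4HT. All 4 values of 4HT lay above all 4 of EtOH, with a log2 difference of 0.87 ± 0.17 (SE) and a limma adjusted p of 0.403. Its adjusted p lay between 0.167 and 0.965 under the alternatives. Next was a region holding the start sites of Atp5b and Snord59a, with 0.58 (adjusted p = 0.887 in limma). The 3 lowest differences were -0.62 at Septin1, -0.60 at chr4:11013830-11014625 and -0.58 at Mus81, a nuclease gene (limma adjusted p = 0.887 for each). None of these passed the threshold.

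**Figure D5:**
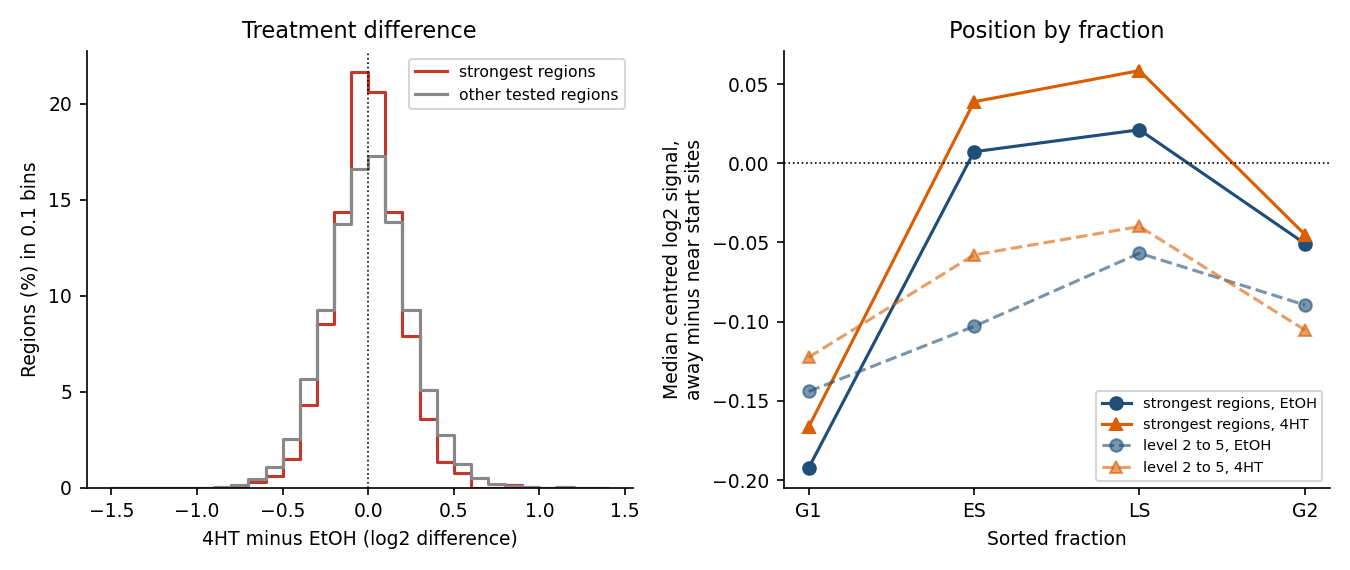
Left: percent of regions (vertical axis) by log2 difference of 4HT minus EtOH (horizontal axis, bins of 0.1) for the strongest and the other tested regions, with medians near 0. Right: median centred log2 signal of regions away from start sites minus that of regions near them (vertical axis) in each fraction (horizontal axis), for the strongest regions (solid) and those at a level of 2 to 5 (dashed), with G1 the lowest fraction in each of the 4 lines.

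The fractions were compared with G1 in the same limma fit, with the treatments as 2 repeats. The contrasts share the G1 columns and are therefore not independent of each other. For ES minus G1 no region passed an adjusted p of 0.05 (0% of those tested), and at an unadjusted p under 0.05 limma passed 78 of the strongest regions, 11.7%, against 7.13% of all tested. For LS minus G1 none passed either (0%), and 77, or 11.5%, passed unadjusted against 7.28%. For G2 minus G1, limma called 2 regions, 0.0182% of those tested, and both were among the strongest. Unadjusted, 59 or 8.82% passed, against 5.9%. The median standard error was 0.24 for the strongest regions and 0.31 for the other tested regions in each of the 3 contrasts. For 4HT minus EtOH it was 0.17 against 0.22, where the share was 5.23% against 5.42%. The part of the standard error in any of these shares was not tested.

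Both called regions were higher in G2. They are the region in Zc3h7a, with a log2 difference of 2.13 ± 0.18 (SE) and a limma adjusted p of 5.46e-06, and the region on chr3, with 2.67 ± 0.20 and 3.70e-06. The difference was seen in each treatment, with 1.86 in EtOH and 2.40 in 4HT for Zc3h7a and 3.06 and 2.28 for the chr3 region. Both are narrow, 174 and 259 bp. Their G2 columns entered the level that chose them. Without these columns their levels were 9.67 and 7.27. In Zc3h7a the signal was lower in ES (-1.08, limma adjusted p = 0.0624) and LS (-0.94, limma adjusted p = 0.330) than in G1, and neither passed.

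Among other strongest regions, those with the highest ES minus G1 difference were one at chr9:23563621-23563856 (1.03), that of Fzr1 (0.91), the gene of an activator of the anaphase-promoting complex, and one in Rbpms (0.90). At Fzr1 the signal was 0.532, 1.07, 1.03 and 0.8002 CPM in EtOH G1, ES, LS and G2 and 0.470, 0.835, 0.729 and 0.664 CPM in 4HT, so that G1 was the lowest column in each treatment. The lowest after Zc3h7a were Septin1 (-0.97) and Hnrnpul1 (-0.90). For LS minus G1, the highest were Mtmr7 (1.03), Zfp42 (1.02) and Mtmr12 (0.91), and the lowest were chr2:177080004-177080135 (-0.97), Zc3h7a and Phf12 (-0.86). For G2 minus G1, Impa2 (0.92) followed the called regions, and the lowest were Chd6 (-1.47), Zfp640 (-1.41) and Pisd-ps2 (-0.97). Apart from the 2 called regions, the limma adjusted p-values of the regions named for these contrasts lay between 0.0624 and 0.529. None of these differences passed the threshold.

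Over all strongest regions the median differences from G1 were -0.01 in ES, 0.01 in LS and 0.02 in G2 after centring. Before centring, on the deposited scale, they were -0.12, 0.19 and 0.11, so the sign of the level as a whole depends on the scale, and only differences between regions are described here.

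Regions near and away from start sites differed in the fractions. In the 131 strongest regions over 1000 bp from a start site, the median centred log2 signal relative to that of the 538 near ones was -0.19 in EtOH G1, 0.01 in ES, 0.02 in LS and -0.05 in G2. In 4HT the values were -0.17, 0.04, 0.06 and -0.05. The fractions thus had the same order in both treatments, from G1 as the lowest through G2 and ES to LS. On the deposited scale the values were -0.19, 0.01, 0.02 and -0.06 in EtOH and -0.17, 0.05, 0.06 and -0.04 in 4HT.

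Region by region, 83 of the 131 regions away from start sites were higher in ES than in G1 in EtOH (63.4%) and 79 in 4HT (60.3%). Near start sites these shares were 45.0% and 44.6%. For LS against G1 the shares away from start sites were 65.6% and 64.9%, and near them 46.1% and 47.2%. The medians away from start sites were 0.15 in EtOH and 0.13 in 4HT for ES minus G1, and 0.16 and 0.18 for LS minus G1. Near start sites they lay between -0.04 and -0.03. In regions at a level of 2 to 5 the difference between regions away and near had the same sign but was smaller, with 0.05 and 0.06 for ES minus G1 and 0.09 and 0.09 for LS minus G1, against 0.19 and 0.16, and 0.19 and 0.21, in the strongest regions. These sizes are below the standard error of a single region. The regions share their columns and the contrasts share G1, so no test was made.

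Position went together with width: the median width was 873 bp near start sites, 548 bp at 1 to 10 kb and 534.5 bp beyond 10 kb. Leaving out regions under 300 bp, the 95 strongest regions away from start sites had medians of 0.17 for ES minus G1 and 0.20 for LS minus G1. The 13 of 1000 bp or more had 0.07 and 0.12. Near regions of like width were not set beside them, so the part of width was not tested. Of all regions away from start sites, the 30 on chromosome 8 had 0.21 and 0.20, and the 101 on other autosomes 0.13 and 0.19. For 4HT minus EtOH, the median of the regions away from start sites was 0.03 in G1, 0.01 in ES, 0.03 in LS and -0.09 in G2, and that of the near ones in the same order -0.01, 0.02, 0.01 and 0.02, so the treatment difference had no common sign by position. Among the 410 regions with a promoter in the table, the median 4HT minus EtOH difference was 0.01 without a CCAAT box, -0.02 with 1 or 2 and 0.02 with at least 3.

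The strongest regions varied less over the 8 columns than the weaker ones did. The range of the 8 centred log2 values had a median of 0.75, against 0.92 for the other tested regions. The rule chose the strongest regions for higher levels, and so for more reads. The part of read count in this difference was not tested. Among the strongest regions the median range was 1.16 in those under 300 bp and 0.61 in those of 1000 bp or more. The smallest ranges were at Smim4 (0.23), a gene of a mitochondrial protein, Psmd3 (0.24), a proteasome subunit gene, and Smarcd2 (0.25), the gene of a chromatin remodeller subunit. At Smim4 the signal was 0.778, 0.624, 0.855 and 0.740 CPM in EtOH and 0.775, 0.697, 0.854 and 0.703 CPM in 4HT. On this deposited scale ES was the lowest and LS the highest fraction in each treatment, as in the medians of all strongest regions. This order did not hold after centring, where EtOH G1 was the highest column and EtOH ES the lowest. In 4HT the centred differences from G1 at Smim4 were 0.04 in ES, 0.003 in LS and -0.15 in G2. The widest were the region on chr3 (3.63), that in Zc3h7a (3.58) and that of Zfp640 (2.43), where EtOH G1 was the highest column and EtOH G2 the lowest.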

How the data were processed

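The deposited values are a coverage signal in 8 columns per region and per window of 5000 bp at start sites, made by the authors from 16 libraries. No column carries a replicate number, so each was taken as 2 pooled libraries and no SD is given. The submitters' processing notes name mm10, featureCounts and DESeq2, and an aligner and coverage program are not given in the sources used here. From the values, the signal was read as CPM averaged over covered bases, with the smallest value as 1 read. Regions read in all columns at a level of at least 2 (11010, sex chromosomes included) were tested: log2(signal + 0.1), cyclic loess centring, and limma 3.58.1 (R 4.3.3) with terms for treatment and fraction, intensity trend, robust moderation and Benjamini-Hochberg adjustment over all 11010. Fold changes of low regions are understated on this scale.

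Start sites came from RefSeq tables of GRCm38.p6 and from windows without a symbol, and motifs were counted by exact letters on both strands. Named were the 12 regions of highest level, called regions, the 3 highest and 3 lowest per contrast, 3 on each side of the threshold, up to 3 per gene list, the largest groups and the widest and narrowest ranges. Any other region or gene was named after its values were seen, and predicted symbols only in full descriptions. A listed gene that the rule names is not reported here. The members, the gene lists, the motifs and the tests were chosen with earlier results of these data known. Alternatives were other pseudocounts, filters, scalings, thresholds and the removal of 1 fraction.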

Additional observations from a re-analysis of the deposited data

How the results depend on the processing

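Under 10 alternative fits, 4HT minus EtOH gave 0 called regions, and LS minus G1 gave 0 under 8, all in limma with an adjusted p of 0.05 (between 195 and 2254 regions at an unadjusted p under 0.05). ES minus G1 gave 3 with a level of at least 3 and 1 on the deposited scale, and in each case 1 of these was the region in Zc3h7a (-1.09, adjusted p = 0.0357, and -1.25, adjusted p = 0.0155, in limma, against 0.0644 to 0.524 with -0.38 to -1.20 elsewhere). G2 minus G1 gave 2 or 3, and both regions described passed under all 8. The 24 results for named regions kept their sign under all 204 combinations run. For 4HT minus EtOH, the median of the strongest regions was -0.0557 as deposited and -0.0439 with median-of-ratios scaling. For ES minus G1 it was -0.1172 and -0.0658 under these, -0.0021 and -0.0001 with pseudocounts of 0.5 and 2, -0.0087 with no filter, -0.0053 with a level of at least 3, and -0.0026 without LS. For LS minus G1 it was 0.1901 and 0.0719 under the scalings, 0.0116 without ES and 0.0093 without G2. For G2 minus G1 it was 0.1057 and 0.0570, and 0.0040 with a pseudocount of 2. The cause was not tested. The rule gave 158 regions when every multiple had to reach 5, 1405 at a level of 4 and 141 at a level of 8. At a level of 4, 76.0% lay near a start site. At a level of 8, 69.1% of promoters held a CCAAT box, an alternative chosen after seeing the data. No paired analysis was possible because the columns carry no replicate numbers. Depth limits single regions, since a level of 5 is the worth of 5 reads at a base.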
